A study of Homo sapiens with 46 samples.

Results

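The 78 genes described here are named for proteins of the mitochondrial ribosome. They were chosen by name alone, as every gene whose symbol is MRPL or MRPS followed by a number and at most one letter A, B or C, among 21183 Ensembl genes in the 4 transcript tables of the study. Of the 78 members, 49 are MRPL genes, named for the large subunit, and 29 are MRPS genes, named for the small subunit. MRPL1 had no row in the endoderm table and MRPL53 none in the mesoderm table, so 76 members could be compared across cell types.

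The mitochondrial ribosome translates the few proteins that mitochondrial DNA encodes, all of them subunits of the respiratory chain and ATP synthase. Its RNAs come from mitochondrial DNA, but its proteins are encoded in the nucleus, made on cytosolic ribosomes and imported. An mRNA of this family is therefore transcribed on chromatin, exported and translated in the cytoplasm or at the mitochondrial surface. Pluripotent stem cells rely strongly on glycolysis and keep mitochondria of immature shape, and mitochondrial content changes as they differentiate.

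The libraries came from H1, an established line of human pluripotent stem cells (hPSC), and from ectoderm, endoderm and mesoderm cells derived from it. The hPSC were grown in mTeSR1 on Matrigel. Derived cells were collected after 5 days: ectoderm in DMEM/F12 with KOSR, A83-01, PNU-74654 and Dorsomorphin, endoderm in RPMI with FBS, WNT3A and Activin A, and mesoderm in DMEM/F12 with FBS, VEGF, BMP4 and bFGF, with Activin A in the first day only. From each cell type came libraries of cytoplasm, whole nucleus, nucleoplasm (nuclear RNA not held by chromatin) and chromatin, with α-amanitin, an inhibitor of RNA polymerase II, in the buffers of all groups. There were 46 libraries in 16 groups, 15 of them with 3 libraries, while mesoderm nucleoplasm had 1. All came from one cell line, and the labels do not say that replicates were separate cultures, so p-values measure the spread between these samples, which may be technical.

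Library totals ran from 4990408 to 17143491 counts in mesoderm, 7738946 to 21298678 in ectoderm, 7899619 to 18360084 in endoderm and 8329295 to 15798639 in hPSC. The pluripotency factor POU5F1 was highest in hPSC cytoplasm (2540 TPM, the authors' abundance corrected for transcript length) and stood at 1660 TPM in endoderm, 890 in mesoderm and 6.35 in ectoderm. Of 6 pluripotency markers 4 were highest in hPSC, while SOX2 was highest in ectoderm (207 against 80.6 TPM in hPSC) and LIN28A in endoderm (652 against 527). All 6 endoderm markers, SOX17 and FOXA2 among them, were highest in endoderm. Of these only GATA6 had a row in another table (12.6 TPM in endoderm against 1.74 in mesoderm). Of 6 ectoderm markers PAX6, OTX2 and NES were highest in ectoderm, ZIC1 was low and highest in mesoderm (1.36 against 1.13 TPM), and SOX1 and HES5 had no row. Of 6 mesoderm markers only HAND1 was highest in mesoderm (102 TPM, against 43.1 in endoderm). TBXT stood at 0.0767 TPM in mesoderm against 2.64 in endoderm, and TBX6 at 2.85 against 4.13 in hPSC. MIXL1, MESP1 and KDR had no row in the mesoderm table, while MIXL1 was at 11 TPM in endoderm. CPM are a gene's counts over all counts of its library, with transcripts of no Ensembl gene included, scaled to a common total. The nuclear-retained RNA MALAT1 went against the fraction labels in hPSC. It had 232 ± 22.4 CPM (SD, n = 3) in libraries labelled cytoplasm and 81.6 ± 12.2 in those labelled nucleus. In ectoderm these were 1660 ± 534 and 168 ± 135 CPM, in endoderm 126 ± 39.9 and 130 ± 129, and in mesoderm 172 ± 15.2 and 318 ± 114. Mitochondrially encoded RNAs took 13.9% of counts in hPSC libraries labelled nucleus against 0.515% in those labelled cytoplasm, 9.5% against 1.29% in ectoderm and 11.6% against 0.436% in endoderm, but 1.26% against 6.79% in mesoderm. The value columns taken as nucleus carry the code Nei, which no label explains. They were read as nucleus because it was the one fraction left after the other 3 codes were matched, so this assignment is an inference. Below, cytoplasm and nucleus mean the libraries so assigned, and the part of these differences in the results was not tested.

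Where the genes lie was read from the GENCODE annotation of GRCh38, in which all 78 members were found, on 21 chromosomes. For 17 members (21.8%) another protein-coding gene started within 1000 bases on the other strand, running away from it, against 7.4% of 19922 protein-coding genes. MRPL46 (chr15:88459476-88467419, minus strand) and MRPS11 (chr15:88467453-88480773, plus strand), a large- and a small-subunit gene, are such a pair with each other. Another gene overlapped 38 members (48.7%) on the opposite strand, against 52.2% of all protein-coding genes. Whether the counting used strand is not given in the sources used here, so reads of such pairs may not be told apart. The members' coding transcripts were short, with a median of 1033.5 bases against 1760 over all protein-coding genes.

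Promoter windows from 250 bases before to 50 after a gene's start (RefSeq, GRCh38.p14) were matched for 69 members, in 85 windows. On either strand, 33 of these (38.8%) held the ETS-family motif CCGGAAG, against 10.3% of 35116 windows of all genes. The YY1 motif AAGATGGCG, whose letters include the ATG of a start codon, was in 13 (15.3%), against 1.7%. The GC box GGGCGG was in 51 (60.0%), against 45.0%, and the NRF1 motif GCGCATGCG, named for a regulator of nuclear genes for mitochondria, in 3 (3.5%), against 1.9%. The ETS and YY1 shares were higher than over all windows, and a match is a description and not a bound site. The 4 windows below were picked after the values were seen. They belong to MRPS18C and MRPL58, whose fall from hPSC is described below, MRPL50, whose mRNA was enriched in the cytoplasm of each cell type, and MRPL46, which shares its start region with MRPS11. They are written 5′ to 3′ on the gene's strand, with each match to the ETS, YY1 or NRF1 letters in capitals.
MRPS18C, chr4:83455808-83456107, plus strand: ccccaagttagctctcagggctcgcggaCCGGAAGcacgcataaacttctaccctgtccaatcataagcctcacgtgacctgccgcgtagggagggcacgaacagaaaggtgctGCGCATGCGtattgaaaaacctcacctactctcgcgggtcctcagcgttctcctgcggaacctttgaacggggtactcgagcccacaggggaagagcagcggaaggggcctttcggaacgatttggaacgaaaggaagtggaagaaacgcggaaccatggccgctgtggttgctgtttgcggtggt
MRPL58, chr17:75012420-75012719, plus strand: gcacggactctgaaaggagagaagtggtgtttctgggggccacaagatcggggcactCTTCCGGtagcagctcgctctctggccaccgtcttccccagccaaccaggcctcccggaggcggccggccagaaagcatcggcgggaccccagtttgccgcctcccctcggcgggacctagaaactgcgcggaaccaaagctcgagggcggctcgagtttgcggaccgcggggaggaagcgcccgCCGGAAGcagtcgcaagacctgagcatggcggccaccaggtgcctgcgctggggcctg
MRPL50, chr9:101398569-101398868, minus strand: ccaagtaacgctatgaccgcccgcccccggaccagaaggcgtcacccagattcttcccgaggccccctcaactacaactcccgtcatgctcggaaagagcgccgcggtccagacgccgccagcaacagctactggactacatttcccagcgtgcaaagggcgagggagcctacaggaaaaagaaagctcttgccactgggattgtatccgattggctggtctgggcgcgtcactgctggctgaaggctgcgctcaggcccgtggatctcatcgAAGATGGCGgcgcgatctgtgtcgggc
MRPL46, chr15:88467339-88467638, minus strand: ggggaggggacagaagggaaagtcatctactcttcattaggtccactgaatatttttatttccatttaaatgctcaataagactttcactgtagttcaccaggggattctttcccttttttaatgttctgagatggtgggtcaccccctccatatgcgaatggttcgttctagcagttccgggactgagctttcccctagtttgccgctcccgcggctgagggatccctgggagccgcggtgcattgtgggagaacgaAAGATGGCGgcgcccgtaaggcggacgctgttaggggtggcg
The MRPS18C window holds an ETS and an NRF1 match, the MRPL58 window 1 ETS match on each strand, and the MRPL50 and MRPL46 windows a YY1 match each.

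In the cytoplasm, members were compared with each other per length, in the authors' TPM. The median member stood at 72.55 TPM in hPSC, 62.49 in endoderm, 47.04 in mesoderm and 39 in ectoderm. In hPSC the 3 highest were MRPS34 at 284 ± 11, MRPL41 at 279 ± 64.9 and MRPL51 at 249 ± 50.1 TPM (SD, n = 3), which do not differ beyond their spread. The lowest there were MRPS30, MRPL19 and MRPL42, with 10.9, 8.27 and 8.2 TPM. In ectoderm MRPL51 (189 TPM), MRPS6 (181.5) and MRPL33 (153) led, and MRPL19 (8.63), MRPS17 (7.41) and MRPS23 (6.73) came last. In endoderm MRPL41 (273 TPM), MRPS21 (259) and MRPL51 (223) led, and MRPL50 (12.2), MRPL35 (12.1) and MRPL42 (8.49) came last. In mesoderm MRPL51 (199 TPM), MRPL41 (178) and MRPL52 (141) led, and MRPL22 (9.76), MRPL35 (9.43) and MRPS30 (5.31) came last.

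The order was much alike between cell types, with Spearman's rho from 0.75 to 0.86 over 76 members in the 6 pairs of cell types, given as a description because the points share genes and lengths. MRPL41, MRPL51 and MRPS34 were among the 10 highest in each cell type. The proteins of one ribosome are present in about equal number, whereas these mRNAs ran from 8.2 to 284.3 TPM in hPSC. The upper quartile stood 3.39 times over the lower one in ectoderm, 3.28 times in hPSC, 3.19 times in endoderm and 2.61 times in mesoderm. MRPL42, a large-subunit protein, was at 58.2 TPM in ectoderm and 49.2 in mesoderm against 8.2 in hPSC and 8.49 in endoderm. In counts, MRPL42 was at 99.85 to 105.3 CPM in hPSC and 91.58 to 102.1 in mesoderm, ranges that overlap. Each cell type has its own transcript assembly, and TPM depends on which transcript the reads are given to.

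MRPL genes held 68.8 ± 1.35% of the family's cytoplasmic TPM in hPSC (SD, n = 3), 66.3 ± 0.425% in ectoderm, 66.2 ± 0.26% in mesoderm and 64.3 ± 0.52% in endoderm. They make up 49 of 78 genes. The endoderm share lacks MRPL1 and the mesoderm share MRPL53, so each of these rests on 77 members. The part of these gaps in the shares was not tested. The share was lowest on chromatin in each cell type, with 60.2 ± 0.735% in mesoderm, 60.7 ± 0.775% in endoderm, 61.5 ± 0.658% in ectoderm and 65.8 ± 0.418% in hPSC. It was highest in the cytoplasm in hPSC, ectoderm and mesoderm, but in endoderm the nucleus stood at 65 ± 1.14%. MRPS18A and MRPS30 carry small-subunit names, but their proteins sit in the large subunit. Counted with it, the large-subunit share in the cytoplasm reached 70.9% in hPSC, 68.2% in ectoderm, 68.1% in mesoderm and 66.2% in endoderm. As a share of counts, which grow with length, the MRPL genes held 62.5%, 61.2%, 61.6% and 61.9%, which is another order of the derived cell types.

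The family's share of all counts was highest in the cytoplasm of each cell type. In hPSC cytoplasm the 3 libraries gave 0.496%, 0.52% and 0.701%, a mean of 0.572 ± 0.112%. The first replicate is the highest and stands apart from the other two. In endoderm cytoplasm the share was 0.464 ± 0.0179%, in mesoderm 0.361 ± 0.00718% and in ectoderm 0.316 ± 0.0306%. Ectoderm had the smallest step to the nucleus, at 0.263 ± 0.0117%, against 0.258 ± 0.0331% in hPSC, 0.178 ± 0.0192% in mesoderm and 0.173 ± 0.0141% in endoderm. Chromatin libraries gave 0.305 ± 0.022% in hPSC, 0.231 ± 0.00346% in ectoderm, 0.175 ± 0.032% in mesoderm and 0.157 ± 0.00935% in endoderm. By share of counts the hPSC libraries were thus the highest of the 4 cell types in the cytoplasm and on chromatin. There they had no overlap with any derived library of the same fraction. In the authors' TPM the family's sum was 6730 ± 806 in hPSC cytoplasm and 6171 ± 320 in endoderm cytoplasm (SD, n = 3). These groups overlapped, as an endoderm library at 6505 lay above hPSC libraries at 6240 and 6291. Sums in mesoderm and ectoderm cytoplasm were 4502 ± 165 and 3928 ± 686 TPM.

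**Figure D1:**
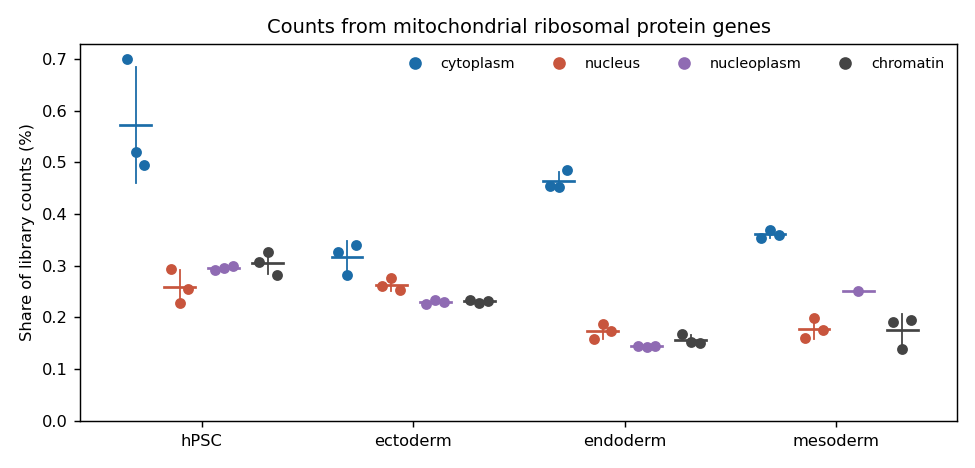
Share of each library's counts (%, vertical axis) that came from the 78 mitochondrial ribosomal protein genes, by cell type and fraction, with points for libraries, horizontal lines for means and vertical lines for 1 SD. Cytoplasm stands above the other fractions in each cell type, with means from 0.316% in ectoderm to 0.572% in hPSC, where the first library lies at 0.701%.

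Cytoplasm was compared with nucleus within each cell type, to see in which the family's mRNAs were relatively more abundant. The values compare libraries scaled to each other and do not give the amount of an mRNA in each compartment. In hPSC 72 of 78 members were called higher in the cytoplasm and 0 lower. A call means an adjusted p under 0.05 in edgeR's quasi-likelihood test over all genes. The members' median log2 fold change was 1.17, against 0.11 over 13985 genes, of which 35.6% were called higher and 30.1% lower. At an unadjusted p under 0.05 the same test also passed 72 members, and DESeq2 gave 72 higher and 0 lower. Large-subunit genes had a median of 1.22 and small-subunit genes of 1.07.

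The named members of hPSC were all of the large subunit. MRPL1 (ENSG00000169288), a protein of the large subunit, had 36.26, 33.28 and 33.44 CPM in the cytoplasm and 8.813, 6.136 and 6.659 in the nucleus, a log2 change of 2.20 ± 0.301 (SE, adjusted p = 2.57e-05). MRPL50 (ENSG00000136897) had 52.11, 34.35 and 29.59 CPM against 10.68, 5.175 and 9.26, a change of 2.15 ± 0.326 (adjusted p = 6e-05). MRPL47 rose by 2.10 ± 0.325. The 3 cytoplasmic libraries of each lay above the 3 nuclear ones. Of the 6 members that did not pass, MRPS25 had the smallest change (0.04 ± 0.14, adjusted p = 0.802), and MRPS30 differed by 0.21 ± 0.159 (adjusted p = 0.261), with 65.94 to 73.98 CPM in the cytoplasm and 57.81 to 59.74 in the nucleus.

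In mesoderm 66 of 77 members were called higher in the cytoplasm and 2 lower, with a median of 1.30 against 0.00 over 14392 genes (32.1% called higher, 31.2% lower). MRPL33 (ENSG00000243147), one of the smallest proteins of the large subunit, had 15.76, 28.23 and 18.95 CPM in the cytoplasm and 2.951, 3.9 and 2.812 in the nucleus, a log2 change of 2.83 ± 0.288 (adjusted p = 9.95e-06). MRPL11, of the stalk base, had 84.07, 88.26 and 81.59 CPM against 17.34, 20.89 and 16.87, a change of 2.31 ± 0.236, and MRPL51 rose by 2.24 ± 0.295. The groups of these 3 did not overlap. MRPL32 fell by 0.60 (31.32, 32.08 and 30.95 CPM against 49.73, 59.34 and 45.09), and MRPS31 fell by 0.54 (28.65, 27.3 and 24.58 against 37.18, 46.11 and 42.98). In both genes it was an isoform with no Ensembl transcript ID that was lower, as described below, and with Ensembl transcripts alone the MRPL32 change was 0.24. In the authors' TPM only 19 members were called higher and 8 lower, with a median of 0.26, while the median of all genes moved to -0.88.

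In endoderm 54 of 77 members were called higher in the cytoplasm and 1 lower, with a median of 0.73 against 0.01 over 12678 genes (34.4% called higher, 35.5% lower). MRPL50 had 33.66, 39.1 and 34.85 CPM in the cytoplasm against 1.074, 5.028 and 2.675 in the nucleus, a log2 change of 2.99 ± 0.321 (adjusted p = 9.41e-07). MRPL47 rose by 2.68 ± 0.214. MRPL19 had 65.79, 65.37 and 48.51 CPM against 3.29, 8.128 and 6.955, a change of 2.63 ± 0.244. The libraries of the 2 groups did not overlap for any of these 3 genes. Scaling by total counts moved the median of all genes to 0.73 and gave 75 members higher and 0 lower.

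Ectoderm differed from the other cell types. There 19 of 78 members were called higher in the cytoplasm and 15 lower, with a median of -0.16 against 0.03 over 15654 genes (28.7% called higher, 24.8% lower), a share near the background. Large-subunit genes had a median of -0.18 and small-subunit genes of -0.07. MRPL50 was again among the highest, with 31.69, 24.58 and 32.1 CPM against 8.658, 5.305 and 9.271, a log2 change of 1.65 ± 0.18 (adjusted p = 7.57e-06). MRPL1 rose by 1.63 ± 0.285 and MRPL39 by 1.31 ± 0.124. MRPS12 (ENSG00000128626), the small-subunit protein at the decoding site, had 17.24, 15.2 and 15.26 CPM in the cytoplasm and 18.74, 27.09 and 19.03 in the nucleus, and fell by 0.80 (SE 0.198, adjusted p = 0.0042). MRPL38 fell by 0.63 and MRPS18A by 0.61. The split depends on the scaling: with total counts, 32 members were called higher and 3 lower (median 0.21, all genes 0.38), and in TPM 22 higher and 0 lower. Without the second nucleus library it was 22 higher and 5 lower.

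**Figure D2:**
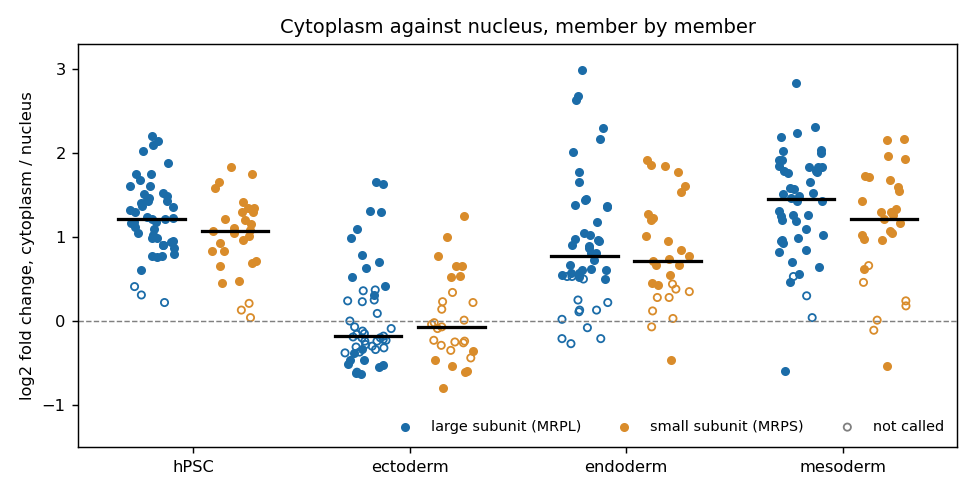
Log2 fold change between cytoplasm and nucleus (vertical axis) of each member in the 4 cell types, with large-subunit genes in blue and small-subunit genes in orange, open circles for members not called and black lines for the median of each subunit. Most members lie above 0 in hPSC, endoderm and mesoderm (large-subunit medians 1.22, 0.77 and 1.45) and around 0 in ectoderm (-0.18).

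Genes of related function were counted the same way. All 83 cytosolic ribosomal protein genes, which share the function but not the organelle, were called higher in the cytoplasm in hPSC (median 1.66) and in mesoderm (median 3.11), 78 of 83 in endoderm and 9 of 83 in ectoderm, where 8 were lower. Of the nuclear-encoded respiratory chain genes tested, 70 of 79 were higher in hPSC, 69 of 80 in mesoderm, 51 of 78 in endoderm and 14 of 78 in ectoderm. A list of assembly and translation factors of the mitochondrial ribosome had medians nearer 0, at 0.36 in hPSC, 0.20 in mesoderm, 0.08 in endoderm and 0 in ectoderm. It also holds TFAM, POLRMT, TFB2M, LRPPRC and SLIRP, genes of mitochondrial transcription and mRNA. Of 5 mitoribosomal proteins with other symbols, AURKAIP1, CHCHD1, GADD45GIP1 and DAP3 were higher in the cytoplasm in hPSC, and PTCD3 was lower, at 99.3 against 114 CPM. PTCD3 was also lower in mesoderm, with a log2 change of -1.11 ± 0.194, where the 4 others were higher.

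The difference between cytoplasm and nucleus was itself compared between each derived cell type and hPSC with an interaction term, on genes in all 4 tables. All 3 comparisons share the hPSC libraries. In ectoderm it was smaller than in hPSC for 58 of 76 members and larger for 1, with a median change of -1.06 against 0.10 over 10676 genes (27.4% called larger, 24.6% smaller). MRPS12 changed most among the named, with -1.97 ± 0.342 (adjusted p = 9.16e-05), followed by MRPL54 with -1.86 ± 0.408 and MRPL12 with -1.81 ± 0.291. MRPL12, the stalk protein that also contacts mitochondrial RNA polymerase, had 211.2, 147.6 and 134.4 CPM in hPSC cytoplasm and 73.44, 53.67 and 58.35 in the nucleus, against 37.36, 36.45 and 39.35 and 43.68, 55.31 and 38.99 in ectoderm. Its libraries did not overlap between cytoplasm and nucleus in hPSC, while those of ectoderm did. MRPS25 was the exception, with a change of 0.89 ± 0.238.

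For endoderm the interaction was called larger for 6 members and smaller for 14 (median -0.24, all genes -0.03, with 19.7% called larger and 18.3% smaller), so the share of members called smaller lies near the background. The split was 19 larger and 1 smaller with total counts, when all genes moved to 0.48, and 10 larger and 4 smaller without the first hPSC cytoplasm library. For mesoderm it was called larger for 14 and smaller for 5 (median 0.21, all genes 0.16, with 18.8% called larger and 6.9% smaller), again near the background. There total counts gave 3 larger and 10 smaller, with all genes at -0.18, DESeq2 gave 11 and 7, and leaving out the first hPSC cytoplasm library gave 25 and 3.

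Chromatin was compared with nucleoplasm, to follow RNA still held at the template. In hPSC 2 members were called higher on chromatin and 15 lower, with a median of -0.22 against -0.01 over all genes (17.1% called higher, 13.6% lower). MRPL1, MRPL39 and MRPL50 fell by 1.10, 1.09 and 1.06, with 17.79, 20.58 and 8.496 CPM of MRPL50 on chromatin and 29.32, 28.15 and 25.47 in the nucleoplasm. The third chromatin library was the lowest. MRPL57 and MRPL38 were the 2 that rose, by 0.67 and 0.59. Without the third nucleoplasm library 1 member was higher and 7 lower, and without the second 0 and 9.

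In ectoderm 4 members were called higher on chromatin and 30 lower, with a median of -0.36 against -0.02 over all genes (21.6% called higher, 21.7% lower). MRPL13, MRPL50 and MRPS14 fell by 1.30, 1.07 and 0.94, and MRPL46, MRPL23 and MRPS5 rose by 0.49, 0.49 and 0.36. The MRPL23 change was -0.18 with Ensembl transcripts alone. In endoderm 4 were called higher and 47 lower, with a median of -0.67 against -0.12 (22.9% called higher, 30.7% lower). MRPL44 had 4.79, 6.076 and 8.169 CPM on chromatin and 17.71, 16.06 and 14.26 in the nucleoplasm, and fell by 1.91. MRPS18B fell by 1.69 and MRPL39 by 1.64. MRPS18B, 1 of 3 paralogs of bacterial S18, had 8.688, 6.709 and 8.935 CPM on chromatin and 16.53, 19.54 and 16.78 in the nucleoplasm. MRPL38 (0.89), MRPS21 (0.58) and MRPL55 (0.57) rose. Mesoderm was not tested, with 1 nucleoplasm library.

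These nuclear splits depend on the scaling. With total counts hPSC had 5 members higher and 8 lower, ectoderm 8 and 24, and endoderm 11 and 18, while the medians of all genes were 0.16, 0.17 and 0.50. In TPM hPSC had 39 higher and 0 lower, ectoderm 18 and 1, and endoderm 9 and 21, with all genes at 0.49, 0.52 and 0.41. The direction of the calls in hPSC and ectoderm thus turned with the unit. The shares of all genes called with total counts or TPM are not given here. Relative to all genes, the members' median was lower on chromatin in each of these settings, at 0.36 in hPSC, 0.22 in ectoderm and -0.18 in endoderm in TPM.

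Each derived cell type was then compared with hPSC in the cytoplasm, on genes in all 4 tables, to see how the family changes as pluripotent cells are differentiated. These comparisons share the hPSC libraries, and the transcript assembly changes with the cell type. In bulk libraries fewer cells of a type and less RNA per cell cannot be told apart. The family was lower in each derived cell type. In ectoderm 3 of 76 members were called higher and 67 lower, with a median log2 change of -1.03 against 0.01 over 10668 genes (38% called higher, 37.9% lower). In mesoderm 0 were higher and 62 lower, with a median of -0.72 against 0.00 (34.6% called higher, 33.4% lower). In mesoderm 64 members had an unadjusted p under 0.05 in this test, and DESeq2 gave 64 lower and 0 higher. In endoderm 1 was higher and 54 lower, with a median of -0.49 against 0.00 (29.5% called higher, 28.6% lower). The medians of the 2 subunits were close in each, at -1.02 for large and -1.12 for small in ectoderm, -0.78 and -0.66 in mesoderm, and -0.53 and -0.43 in endoderm.

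The first hPSC cytoplasm library gave the family its highest share of counts, and the fall was measured without it. There 65 members were lower in ectoderm, 57 in mesoderm and 51 in endoderm, with medians of -0.83, -0.54 and -0.35, and 3 members were then higher in mesoderm. In TPM endoderm had 9 higher and 16 lower, with a median of -0.13 and all genes at 0.28. Ectoderm had 7 and 55 in TPM, and mesoderm 4 and 42. The shares of all genes called in these refits are not given here, so their counts can be set only against the members' counts above.

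MRPL58 (ENSG00000167862, chr17:75012670-75021261), a peptidyl-tRNA hydrolase built into the large subunit that can release stalled chains, was among the 3 largest falls in each derived cell type. It had 62.91, 40.43 and 41 CPM in hPSC cytoplasm, 9.113, 10.43 and 12.45 in ectoderm, 24.56, 22.2 and 30.46 in endoderm, and 14.52, 17.5 and 19.18 in mesoderm. All derived libraries lay below the lowest hPSC library. It fell by 2.24 (SE 0.206, adjusted p = 1.17e-07) in ectoderm, by 1.06 (SE 0.194, adjusted p = 0.000299) in endoderm and by 1.54 (SE 0.199, adjusted p = 7.82e-06) in mesoderm on the log2 scale.

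MRPS18C (ENSG00000163319, chr4:83455932-83469735), the S18 paralog with the usual place in the small subunit, fell most in endoderm and mesoderm. It had 91.12, 47.25 and 45.51 CPM in hPSC, 20.64, 24.26 and 26.51 in endoderm, 15.04, 21.23 and 17.77 in mesoderm and 18.86, 16.37 and 24.2 in ectoderm. The first hPSC library was the highest, but no derived library reached the other two. The log2 changes were -1.52 ± 0.239, -1.80 ± 0.244 and -1.70 ± 0.241. In TPM the endoderm change was 0.07: the transcript ENST00000295491 had 54.1 CPM and 41.1 TPM in hPSC against 23.8 CPM and 68.4 TPM in endoderm, so the tables gave it another TPM per count. Its paralogs MRPS18A and MRPS18B fell less in endoderm, by 0.68 and 0.43.

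MRPS21, a small protein of the small subunit, was the third fall in endoderm, with 62.36, 60.93 and 70.13 CPM against 168.4, 95.24 and 86.18 in hPSC, a change of -1.02 ± 0.21. In TPM it rose by 1.71. Its transcript ENST00000614145 had 34.4 CPM and 232 TPM in endoderm against 19.8 CPM and 6.86 TPM in hPSC, and ENST00000581066 had 30.1 CPM and 26.9 TPM against 96.8 CPM and 73 TPM. The direction of MRPS21 therefore turns on the unit.

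MRPL12 and MRPL16, both of the large subunit, were the other named falls in ectoderm, each by 2.20 (SE 0.153 and 0.162). MRPL16 had 20.96, 17.03 and 20.62 CPM against 113.3, 73.05 and 68.47. MRPS12 fell by 2.09 in ectoderm, 1.32 in mesoderm and 0.61 in endoderm. MRPS34, the highest member of hPSC in TPM, fell by 1.43 (SE 0.141) in mesoderm, with 80.16, 83.76 and 79.37 CPM against 255.6, 197.5 and 181.2. In these members the derived and hPSC libraries did not overlap.

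A few members went the other way. MRPS5 (ENSG00000144029, chr2:95087207-95149434), a small-subunit protein at the mRNA channel, had 95.97, 74.24 and 92.94 CPM in ectoderm cytoplasm against 53.55, 42.91 and 38.94 in hPSC, a log2 change of 0.87 ± 0.114 (adjusted p = 4.98e-06). MRPS6 (ENSG00000243927, chr21:34073224-34143034) had 127, 111.8 and 135.4 CPM in ectoderm and 123.4, 101.9 and 114.1 in endoderm against 80.56, 66.7 and 63.36 in hPSC, with changes of 0.74 ± 0.112 and 0.52 ± 0.111. MRPL42 (ENSG00000198015, chr12:93467488-93516213) had 179.8, 135.2 and 162 CPM in ectoderm against 105.3, 99.85 and 100.2, a change of 0.55 ± 0.102. The ectoderm libraries of all 3 lay above the hPSC ones. MRPS30 did not pass in mesoderm, with -0.19 ± 0.102 (adjusted p = 0.105), but was lower by 0.81 in both ectoderm and endoderm.

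**Figure D3:**
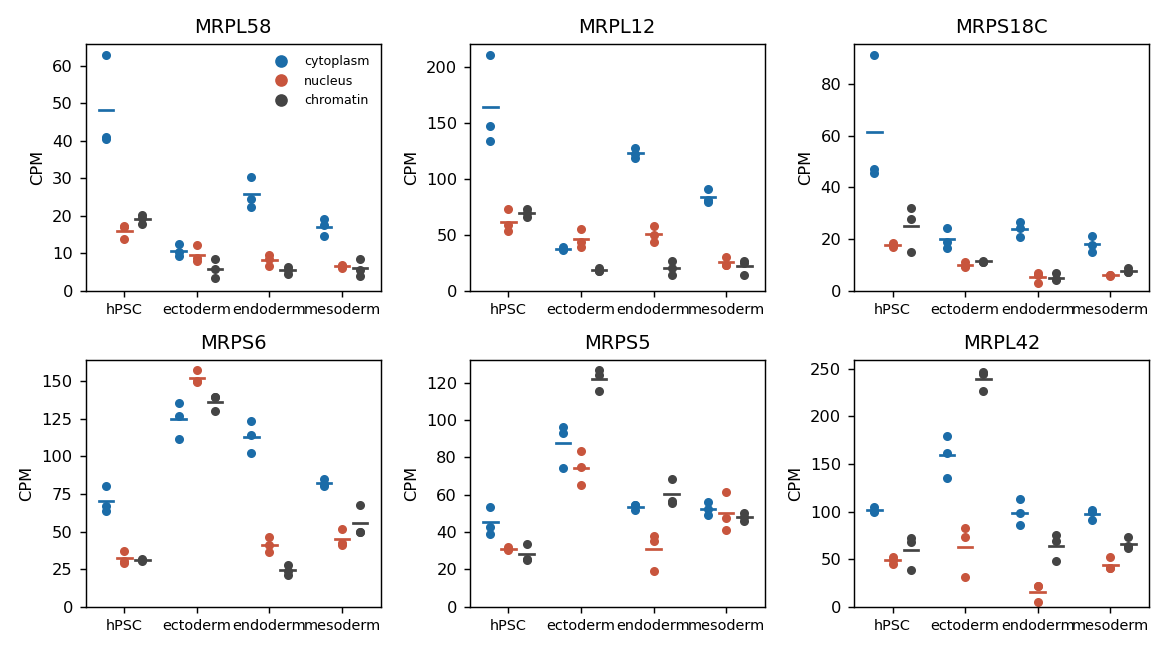
CPM (vertical axes, from 0) of 6 members in each cytoplasm, nucleus and chromatin library of the 4 cell types, with points for libraries and short lines for means. MRPL58, MRPL12 and MRPS18C are highest in hPSC cytoplasm, while MRPS6, MRPS5 and MRPL42 are highest in ectoderm libraries, MRPS5 and MRPL42 on chromatin (122 and 239.6 CPM on average).

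On chromatin the family was also lower in the derived cells. In endoderm 3 members were called higher and 59 lower, with a median of -1.16 against -0.07 over 10664 genes (28.9% called higher, 33% lower). In mesoderm 4 were higher and 51 lower, with a median of -0.96 against -0.03 (27.1% called higher, 27.4% lower), and in ectoderm 9 were higher and 53 lower, with a median of -0.86 against -0.05 (30.5% called higher, 32.4% lower). MRPL57 (53.93, 51.04 and 45.28 CPM in hPSC) fell by 2.19 in ectoderm (10.59, 10.07 and 12.04) and by 2.11 in mesoderm (10.62, 7.414 and 14.64). MRPL54 fell by 2.23 in endoderm and 1.98 in mesoderm, MRPL36 by 1.99 in ectoderm and 1.97 in mesoderm, and MRPL15 by 2.13 in ectoderm. MRPL18, which has been tied to 5S rRNA import, fell by 2.22 in endoderm, and MRPS18C by 2.11. The second mesoderm chromatin library was the lowest of its group in MRPL57, and mitochondrially encoded RNAs ranged from 0.769% to 5.53% of counts in that group. Without that library 3 members were higher and 41 lower in mesoderm, with a median of -0.72, and without the third 5 and 55, with -1.21.

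MRPS6, MRPS5 and MRPL42 were also higher on ectoderm chromatin. Whether their changes differed between chromatin and cytoplasm was not tested. MRPS6 had 139.3, 130.1 and 139.7 CPM on ectoderm chromatin against 31.96, 30.54 and 30.79 in hPSC, a log2 change of 2.14 ± 0.159 (adjusted p = 8.91e-08). MRPS5 had 126.6, 123.8 and 115.6 against 24.94, 25.81 and 33.36, a change of 2.13 ± 0.167, and MRPL42 had 247, 244.9 and 227 against 68.11, 72.13 and 39.13, a change of 2.01 ± 0.226. MRPS5 was also higher on endoderm chromatin (1.29 ± 0.164) and mesoderm chromatin (0.88 ± 0.164), where its cytoplasmic changes of 0.08 and 0.17 did not pass. MRPS6 was higher on mesoderm chromatin (0.94 ± 0.156). MRPS25 rose by 0.93 and MRPL32 by 0.74 on endoderm chromatin, and MRPS31 by 1.21 on mesoderm chromatin. Of these, MRPL32 and MRPS31 turned with Ensembl transcripts alone, to -0.87 and -0.39, and MRPL32 was at -0.40 in TPM. MRPS36, now known as a part of the 2-oxoglutarate dehydrogenase complex and not of the ribosome, passed in none of the 3, with changes of 0.40, 0.08 and -0.45.

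**Figure D4:**
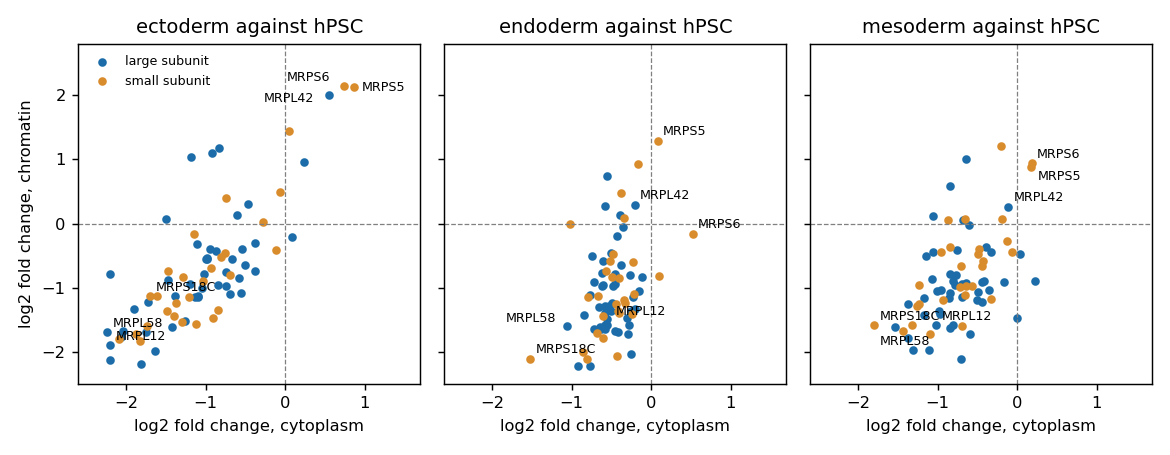
Log2 fold change against hPSC of each of 76 members in the cytoplasm (horizontal axis) and on chromatin (vertical axis), for ectoderm, endoderm and mesoderm, with large-subunit genes in blue and small-subunit genes in orange. Most members lie below 0 on both axes, with median changes from -0.49 to -1.03 in the cytoplasm and -0.86 to -1.16 on chromatin. MRPS6, MRPS5 and MRPL42 lie above 2 on chromatin in ectoderm.

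The other gene groups were counted the same way. Cytosolic ribosomal protein genes in the cytoplasm had 14 of 83 lower and 3 higher in ectoderm (median -0.17) and 11 lower and 1 higher in mesoderm (median -0.20), but 76 lower and 1 higher in endoderm (median -0.81). Over all genes 37.9% were called lower in ectoderm, 33.4% in mesoderm and 28.6% in endoderm. The cytosolic genes thus lay under the background in ectoderm and mesoderm and over it in endoderm. Respiratory chain genes were lower in each, as the members were, with 58 of 78 in ectoderm, 56 in endoderm and 53 in mesoderm. Assembly and translation factors had 20, 18 and 25 of 34 lower. Among the 5 mitoribosomal proteins with other names, 5 were lower in ectoderm, 4 in endoderm and 4 in mesoderm. PTCD3 was higher than in hPSC on endoderm chromatin (0.97 ± 0.187) and mesoderm chromatin (0.52 ± 0.186), and lower in the cytoplasm of ectoderm and mesoderm, by 0.45 in each. The difference between the mitochondrial ribosomal list and these groups was not tested.

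Isoforms were examined in each cell type's own assembly, which held 184 member transcripts in ectoderm, 156 in mesoderm, 152 in hPSC and 150 in endoderm. Of these, 47, 32, 19 and 27 had no Ensembl transcript ID, and 25, 31, 34 and 33 members had 1 transcript. The rule that shared reads followed between isoforms of a gene is unknown here, so isoform values are less certain than gene sums. Protein-coding transcripts took 96.2 ± 0.68% of member counts in hPSC cytoplasm and 93.8 ± 0.28% on hPSC chromatin. In the derived cells the drop was steeper, with 88 ± 0.62% in the cytoplasm and 71.8 ± 1.4% on chromatin for ectoderm. Endoderm had 94.5 ± 0.6% and 79.1 ± 1.23%, and mesoderm 93.4 ± 0.48% and 77 ± 7.66%. Transcripts with no Ensembl ID took 19.5% of member counts on ectoderm chromatin, 15.4% in mesoderm, 11.8% in endoderm and 4.42% in hPSC. Those that GENCODE lists as intron-retaining took 4.84%, 5.49%, 3.91% and 0.58%, in the same order. The assemblies held 8, 11, 4 and 2 such transcripts, again in that order, so the shares rank as the numbers of transcripts that could receive reads. The part of the assembly in these differences between cell types was not tested. Both classes were higher on chromatin than in the cytoplasm in every library of each cell type.

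**Figure D5:**
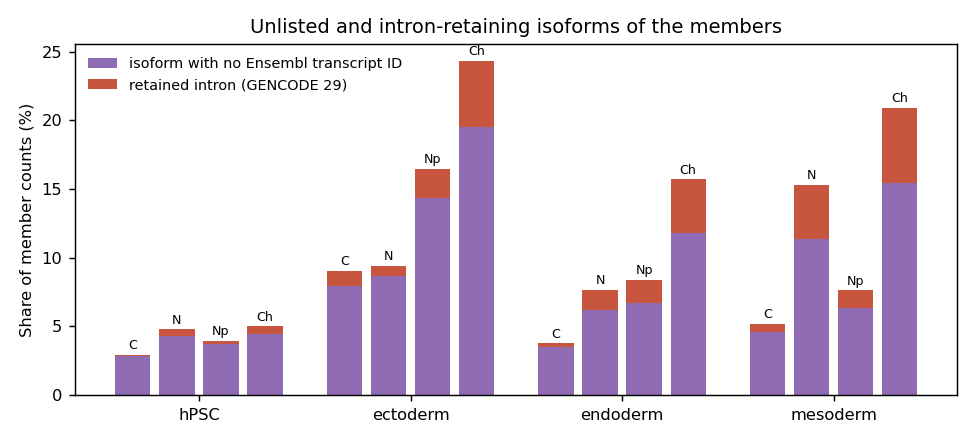
Mean share of member counts (%, vertical axis, bars from 0) in transcripts with no Ensembl ID (purple) and in intron-retaining transcripts (red), by cell type, in cytoplasm (C), nucleus (N), nucleoplasm (Np) and chromatin (Ch). Chromatin is the tallest bar of each cell type, with 19.5% and 4.84% in ectoderm against 7.95% and 1.08% in its cytoplasm.

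Single transcripts were tested for cytoplasm against nucleus over all transcripts of a table. In hPSC 88 of 146 member transcripts were called higher in the cytoplasm and 6 lower (19.6% and 20% of all), in mesoderm 78 and 6 of 155 (15.3% and 16.8%), in endoderm 65 and 9 of 143 (19.3% and 22.9%), and in ectoderm 13 and 3 of 171 (7.03% and 6.62%). Protein-coding transcripts made up 85 of the 88 that were higher in hPSC, 74 of 78 in mesoderm, 62 of 65 in endoderm and 8 of 13 in ectoderm. They were 120, 101, 108 and 113 of the transcripts tested. Of the intron-retaining ones 1 of 2 was lower in hPSC, 2 of 11 in mesoderm and 2 of 4 in endoderm, with median log2 changes of -1.20, -1.05 and -1.83. In ectoderm 0 of 6 were called in either direction, with a median of 0.49.

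Within single genes the isoforms could part. A transcript called higher and another called lower were found only in hPSC (5 members), endoderm (9) and mesoderm (2). How many of all genes have such opposite calls was not counted, so these numbers are not a trait of the family. MRPL28, a large-subunit protein, had 97.05 CPM of its coding transcript MRPL28-202 in hPSC cytoplasm and 26.02 in the nucleus (log2 change 1.88 ± 0.33), while its intron-retaining MRPL28-210 had 3.586 and 10.42 (-1.58 ± 0.391). MRPL32, a zinc-binding protein of the large subunit that the m-AAA protease matures, had an isoform with no Ensembl ID that was lower in the cytoplasm in hPSC (-1.17 ± 0.228), endoderm (-1.72 ± 0.411) and mesoderm (-1.92 ± 0.295). Its coding transcript was higher in hPSC (0.75 ± 0.21) and endoderm (0.67 ± 0.24). MRPS31 had 25.02 CPM of such an isoform in mesoderm nucleus, 9.767 in its cytoplasm and 36.7 on its chromatin, against 4.52 on hPSC chromatin, while its coding transcript stood at 11.9 on mesoderm and 18.3 on hPSC chromatin.

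MRPS6 had isoforms called in opposite directions in mesoderm only. In ectoderm, where its gene sum rose, its coding and intron-retaining transcripts did not pass between cytoplasm and nucleus. There the intron-retaining MRPS6-204 (ENST00000483977) had 63.8 CPM on chromatin and 17 in the cytoplasm, and the coding MRPS6-201 had 56 and 97.5. An isoform with no Ensembl ID had 55.6 CPM in ectoderm nucleus and 10.2 in its cytoplasm, the largest fall among member transcripts there (-2.82 ± 0.187). In mesoderm MRPS6-204 had 18.7 CPM in the nucleus and 3.72 in the cytoplasm (-1.98 ± 0.294), and MRPS6-201 had 26.4 and 78.5 (1.92 ± 0.24). The hPSC and endoderm tables held no MRPS6-204. SLC5A3, a myo-inositol transporter gene that these tables place in the same assembled locus as MRPS6, had 257 ± 13.9 CPM on chromatin in ectoderm, 165 ± 19.3 in endoderm and 129 ± 11.6 in mesoderm, and had no row in the hPSC table. Reads of both genes may not be told apart there, and the part of SLC5A3 in the MRPS6 values was not tested.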

How the data were processed

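Gene and transcript counts, and TPM values, were deposited by the authors as whole-series tables, 1 transcript assembly per cell type. Per the submitters' processing notes hg38, STAR and RSEM were used; their roles and versions are not given in the sources used here. Counts were summed per Ensembl gene, and 1 value column that matched no sample was not used. Library totals ran from 4990408 to 21298678 counts, so weakly expressed members carry the larger standard errors. Calls came from edgeR 4.0.16 (R 4.3.3; TMM, filterByExpr minimum count 10, quasi-likelihood test, Benjamini-Hochberg adjustment over all features, threshold 0.05). Alternatives were total-count scaling, DESeq2 1.42.0, no filter, a replicate block, limma 3.58.1 on log2(TPM + 1), Ensembl transcripts only, and leaving out each library. Counts were also simulated from the mean profile of all hPSC libraries (13985 genes), with the same spread for every gene and 100 genes changed at each size. There edgeR recovered 87% of 2-fold and 96% of 4-fold changes. In the real comparisons far more genes were called and the spread was uneven, so these rates may not hold for them. Named members are up to 3 per direction with the largest called change, at least 10 CPM in the higher group and no overlap of libraries, the 3 highest and lowest in TPM, and a set list of subunit genes. The members and lists were chosen with earlier results of these data known. Transcripts, fraction-check genes and promoters shown were chosen after values were seen.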

Additional observations from a re-analysis of the deposited data

Results flagged for a closer look

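The cytoplasm-nucleus difference itself differed between a derived cell type and hPSC, by the interaction term of edgeR's quasi-likelihood test, for 59 members in ectoderm, 20 in endoderm and 19 in mesoderm, of 76 each. Over all genes 27.4% were called larger and 24.6% smaller in ectoderm, 19.7% and 18.3% in endoderm, and 18.8% and 6.9% in mesoderm, so the members' counts in endoderm and mesoderm do not exceed the background. These 3 comparisons share the hPSC libraries. In ectoderm the named members were MRPS25 with a log2 change of 0.89, MRPS12 with -1.97, MRPL54 with -1.86 and MRPL12 with -1.81.

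In endoderm they were MRPL19 with 1.79, MRPL42 with 1.08, MRPS30 with 0.82, MRPL23 with -1.23, MRPL55 with -0.98 and MRPL20 with -0.91. The MRPL42 call was lost in 9 of the fits that left out 1 library, with values from 0.69 to 1.12.

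In mesoderm they were MRPL57 with 1.32, MRPL11 with 1.27, MRPL34 with 1.07, MRPL23 with -1.35, MRPS31 with -1.18 and MRPL39 with -1.03. The MRPL34 call was lost in 6 such fits and the MRPS31 call in 4. MALAT1, whose levels go against the cytoplasm and nucleus labels in hPSC and ectoderm, and mitochondrially encoded RNAs, whose levels do so in hPSC, ectoderm and endoderm, differ between the same libraries, and their part in these differences was not tested.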

How the results depend on the processing

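Over 24 summary results, 236 of 268 alternatives stayed within 1.5 times the number of members called or 1 SD, and 32 moved. These numbers add both directions, so a change of direction is not seen in them. The share of all genes called in each alternative is not given here, so members are compared with members only. The endoderm interaction, whose split turned with total counts, is counted as unmoved there. For single named members 1151 of 1236 values kept call and direction, 78 lost the call and 7 reversed. In the authors' TPM, which are scaled per length and per assembly, 39 members were called for chromatin against nucleoplasm in hPSC (17 in counts), 19 in ectoderm (34) and 30 in endoderm (51), 22 for cytoplasm against nucleus in ectoderm (34) and 27 in mesoderm (68), and 25 for endoderm against hPSC in the cytoplasm (55). With total counts 29 members were called for chromatin against nucleoplasm in endoderm, and 27 member transcripts in ectoderm (16), against 40 with DESeq2 and 10 with the replicate block. Same-numbered libraries did not deviate together in all pairs of any of 13 comparisons, and the numbers are not taken as pairs. This does not exclude pairs. In ectoderm each chromatin library correlated best with the nucleoplasm library of its own number, though weakly (r from 0.04 to 0.09). The large-subunit share of the cytoplasm was 70.9%, 68.2%, 66.2% and 68.1% with subunits by structure (hPSC, ectoderm, endoderm, mesoderm), 62.5%, 61.2%, 61.9% and 61.6% as a share of counts, and 65.8% in ectoderm with Ensembl transcripts only. Leaving out 1 library gave 8 to 21 members for chromatin against nucleoplasm in hPSC, with 8 and 9 without nucleoplasm replicates 3 and 2. It gave 10 to 28 for the change of the cytoplasm-nucleus difference in mesoderm, 7 to 25 in endoderm and 8 to 25 for transcripts in ectoderm. Reversed values were, with Ensembl transcripts only, MRPL23 in ectoderm chromatin against nucleoplasm (-0.18), MRPL32 in mesoderm cytoplasm against nucleus (0.24), MRPL32 in endoderm (-0.87) and MRPS31 in mesoderm (-0.39) against hPSC on chromatin, and, in TPM, MRPS18C (0.07) and MRPS21 (1.71) in endoderm against hPSC in the cytoplasm and MRPL32 on chromatin (-0.40). The causes were not tested. For MRPS18C and MRPS21 the CPM and TPM of single transcripts are given above as a description.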
